A study of Homo sapiens with 24 samples.

Results

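Imprinted genes are expressed mainly from the allele inherited from a single parent. The 46 imprinted genes and close neighbours listed for these loci were located by their RefSeq spans on hg38 (GRCh38.p14), and 45 of them had a span in the table used, among 19866 protein-coding genes. The listed gene without a span was not analysed here. The 45 genes lie in 16 loci, among them the Prader-Willi and Angelman region at 15q11, the Beckwith-Wiedemann region at 11p15 and the PEG3 domain at 19q13. Each gene was described by the length, in kb, of its span plus 2 kb on each side that lay under H4K20me3 peaks of a library. H4K20me3 is trimethylation of histone H4 at lysine 20, a mark found on silent heterochromatin.

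Imprinting is set by control regions that carry DNA methylation on the copy from a single parent. At such regions the methylated copy is bound by ZFP57 and TRIM28 and carries repressive histone marks, among which H4K20me3 is known from mouse cells. Peaks called in a carcinoma line cannot tell the parental copies apart.

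The marks were mapped by CUT&RUN, in which an antibody directs a nuclease to cut out marked chromatin, in HN-SCC-151, a head and neck squamous carcinoma line without HPV, labelled as wild type. There were 3 libraries of cells treated for 6 days with A-196 at 2.5 µM, a small-molecule inhibitor of the H4K20 methyltransferases SUV420H1 and SUV420H2, against 3 libraries of cells given the vehicle DMSO. There were 4 libraries of cells given siRNAs against SUV420H1 (siSUV420H1) for 6 days, against 4 libraries of cells given control siRNAs (siNC). The design text speaks of 3 dishes per condition and 500000 cells per reaction, so at least the siRNA groups hold a library whose dish is not stated, and the p-values rest on the spread among these libraries alone. All cells come from 1 line, and the peak lists do not measure the amount of SUV420H1.

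Covered length over the whole genome was 79.6 to 107 Mb in A-196 libraries and 145 to 153 Mb in DMSO libraries. It was 118 to 130 Mb in siSUV420H1 libraries and 183 to 193 Mb in siNC libraries. A-196 replicate 2 stood apart within its group, with 13464 peaks, where the other two A-196 libraries had 8505 and 9798. The median peak width was 6 to 7 kb in A-196 libraries and 9 to 10 kb in DMSO libraries, and it was 9 kb in every siSUV420H1 and siNC library. No read counts come with the peak lists, so the depth of each library is unknown, and its part in any difference was not tested. The series holds 2 IgG libraries, of which 1 is titled DMSO. The other has no treatment in its title and was taken as that of the siRNA arm. If each arm was called against its own, a difference between arms and a difference between those controls cannot be told apart. Of 10 squamous epithelial marker genes, 2 were marked in any library, of which TP63 was marked in all, and of leukocyte, fibroblast, endothelial and neuronal markers 1 of 4, 3 of 4, 3 of 4 and 2 of 3 were marked in any library. A silencing mark does not measure expression, so these counts do not identify the cell type.

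In each library a gene counted as marked when 200 bp or more of its extended span lay under peaks. Of the 45 genes, 26 were marked in at least 1 of the 14 libraries and 19 in none, while 66.9% of all coding genes were marked in none. The 26 marked genes were long, with a median span of 77.0 kb, against 4.67 kb for the 19 unmarked genes and 24.5 kb for all coding genes. Of the 15 listed genes of 100 kb or more, 12 were marked in at least 1 library, and of the 30 shorter ones 14 were. The share of all coding genes of each length class marked in any library was not counted, so these counts lack a reference of like length.

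Among the 19 unmarked genes were INS, IGF2, ASCL2, CDKN1C and PHLDA2 at 11p15, WT1 at 11p13, DLK1 at 14q32, GRB10 at 7p12, IGF2R at 6q25 and PLAGL1 at 6q24. The others were MKRN3 and MAGEL2 at 15q11, KLF14 at 7q32, BLCAP, NNAT and L3MBTL1 on chromosome 20, DIRAS3 at 1p31, ZDBF2 at 2q33 and NAP1L5 at 4q22. Marked in every library of a group were 10 of the 45 genes with A-196, 5 with DMSO, 8 with siSUV420H1 and 10 with siNC, beside 5.64%, 9.86%, 9.87% and 13.9% of all coding genes. Among genes of 100 kb or more these were 7, 4, 5 and 7 of 15 listed genes, beside 15.6%, 22.3%, 27% and 36.4% of all such genes. A gene without a peak may still hold signal below the calling threshold, since the narrowest peak in any list was 5 kb wide.

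**Figure D1:**
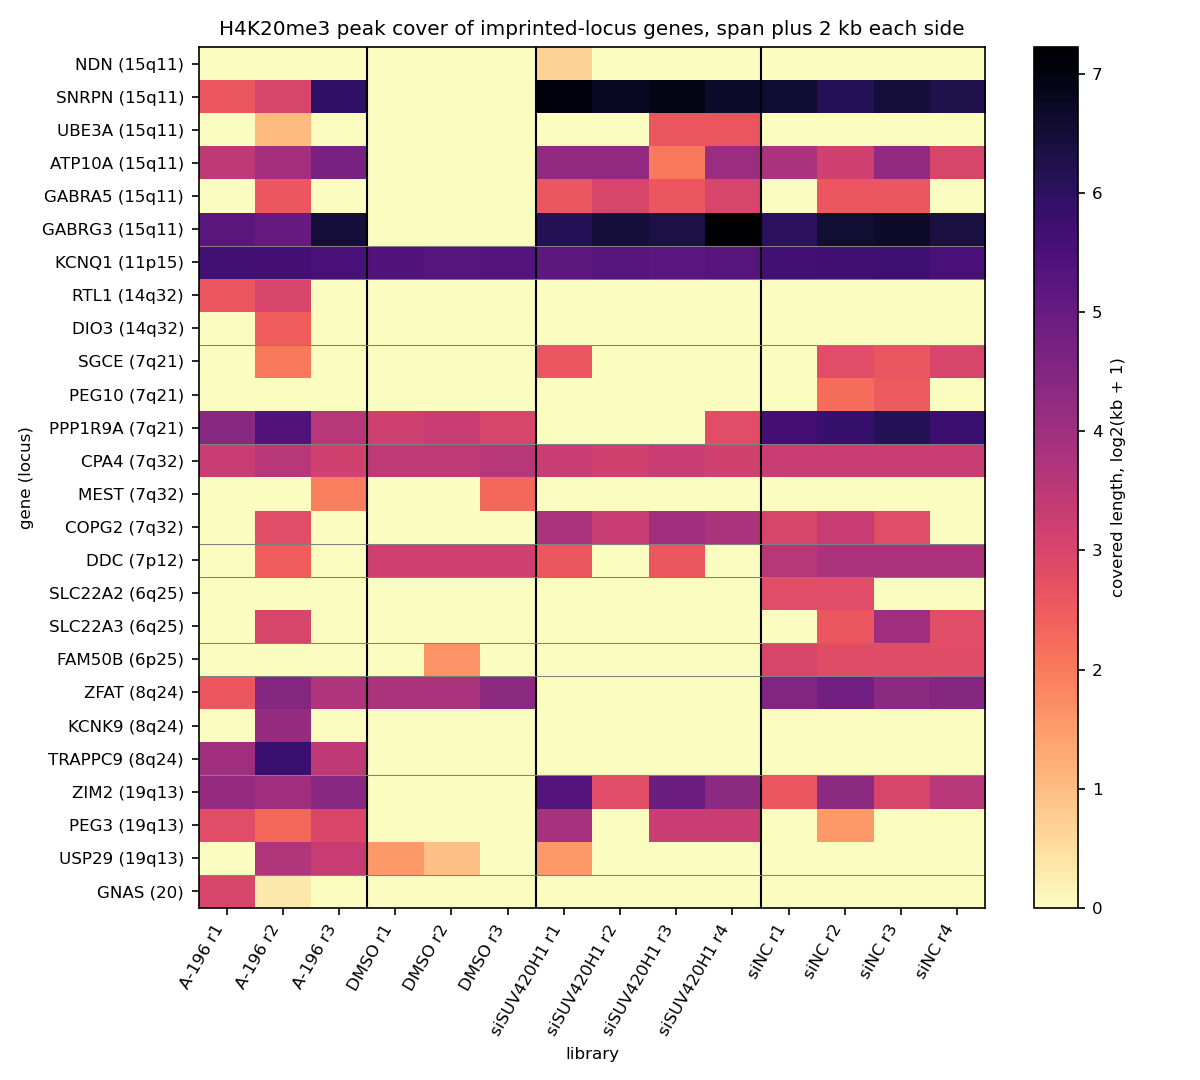
Covered length of the 26 imprinted-locus genes marked in at least 1 library (rows, ordered by locus) in each of the 14 libraries (columns, r for replicate), as log2(kb + 1); vertical lines separate A-196, DMSO, siSUV420H1 and siNC. KCNQ1 and CPA4 were marked in all 14 libraries, and the 15q11 genes were unmarked in all 3 DMSO libraries.

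Per library, 12, 21 and 12 of the 45 genes were marked with A-196 (15 ± 5.20, SD, n = 3), against 6, 7 and 6 with DMSO (6.33 ± 0.577, SD, n = 3). The A-196 libraries all lay above the DMSO libraries, and replicate 2 was the highest; it alone in its group marked 8 of the genes, namely UBE3A, GABRA5, DIO3, SGCE, COPG2, DDC, SLC22A3 and KCNK9. The difference of 8.67 genes became 5.67 without that library. With siSUV420H1, 13, 8, 11 and 11 genes were marked (10.75 ± 2.06, SD, n = 4), against 12, 17, 15 and 12 with siNC (14 ± 2.45, SD, n = 4), and these groups overlapped. Over all coding genes the siRNA groups did not overlap, with 11.5% to 12.3% marked in a siSUV420H1 library and 15.8% to 16.4% in a siNC library. There 10.8% to 18.5% were marked in an A-196 library and 11.6% to 12% in a DMSO library, and only A-196 replicate 2 lay above every DMSO library.

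Peaks covered 179, 310 and 289 kb of the listed genes in A-196 libraries (259 ± 70 kb, SD, n = 3), against 81.8, 80.9 and 87.7 kb in DMSO libraries (83.4 ± 3.70 kb, SD, n = 3). Every A-196 library was above every DMSO library here, while over the whole genome every A-196 library was below. In the siRNA arm they covered 332, 280, 307 and 361 kb in siSUV420H1 libraries (320 ± 34.5 kb, SD, n = 4), against 337, 381, 412 and 336 kb in siNC libraries (366 ± 37.0 kb, SD, n = 4). These groups overlapped. The DMSO and siNC libraries differed too, but they belong to separate arms, whose IgG controls were taken as separate, and that difference was not tested.

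Gene by gene, 8 of the 45 had a longer covered length in all 3 A-196 libraries than in any DMSO library (PPP1R9A, TRAPPC9, KCNQ1, SNRPN, ATP10A, GABRG3, ZIM2 and PEG3), beside 1.09% of all coding genes. Only DDC had a shorter one in every A-196 library, beside 5.51% of all coding genes. Of the 8 higher genes, PEG3 lies within ZIM2 and shares its peaks, and SNRPN, ATP10A and GABRG3 lie in the same 15q11 region. The calls within each of these sets are therefore not independent. Among genes of 100 kb or more, the counts were 6 higher and 1 lower of 15 listed genes, beside 4.11% and 13.2% of all 3355 such genes. With siSUV420H1, 1 gene (SNRPN) was higher in every library, beside 2.08% of all coding genes, and 5 (KCNQ1, PPP1R9A, ZFAT, DDC and FAM50B) were lower, beside 6.74%. Among genes of 100 kb or more these were 1 and 4 of 15, beside 4.68% and 19.4%. When each window was scaled to the covered length of its library, the split with siSUV420H1 became 6 higher and 4 lower, and that with A-196 remained 8 and 1.

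By the exact two-sided permutation test with Benjamini-Hochberg adjustment over all coding genes with a peak in the arm, 0 listed genes passed 0.05 in either arm. With 3 against 3 libraries the smallest p the exact test allows is 0.1, so 0 of the 23 listed genes tested in the A-196 arm had an unadjusted p under 0.05 and the smallest adjusted p was 0.431. In the siRNA arm the smallest possible exact p is 0.0286, which 6 of 20 listed genes reached (SNRPN, KCNQ1, PPP1R9A, ZFAT, DDC and FAM50B), beside 43.9% of all genes tested, with an adjusted p of 0.0650. Under limma on log2(kb + 1), 5 listed genes passed with A-196 (GABRG3, ZIM2, ATP10A, TRAPPC9 and PEG3), beside 10.5% of all genes tested, and the same 6 genes passed with siSUV420H1, beside 49.3%. In what follows, "higher" and "lower" say that the groups did not overlap, and no difference passed the adjusted exact test.

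In the Prader-Willi and Angelman region at 15q11, peaks covered more in A-196 than in DMSO libraries and more in siSUV420H1 than in siNC libraries. SNRPN, which codes for a protein of the splicing machinery and holds the region's imprinting centre, spans chr15:24823637-24978723 (155 kb). A-196 libraries had 5, 7 and 61.1 kb of it under peaks (24.4 ± 31.8 kb, SD, n = 3), against 0 kb in each of the 3 DMSO libraries. All 3 A-196 libraries were higher, but replicate 3 carried most of the length, and without it the difference of 24.4 kb was 6 kb. The siSUV420H1 libraries had 131, 107, 121 and 99.7 kb (115 ± 14 kb, SD, n = 4), against 93.7, 69, 86.1 and 76.1 kb in siNC libraries (81.2 ± 10.9 kb, SD, n = 4). The groups did not overlap, with a difference of 33.5 kb and an exact p of 0.0286 (adjusted 0.0650).

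The bases marked in SNRPN were shared between libraries to different degrees. All 4 siSUV420H1 libraries had 86.7 kb in common and all 4 siNC libraries 34 kb, while the 3 A-196 libraries had 0 kb in common and together touched 69.1 kb. SNURF, which codes for a small protein from the same transcript, lies within SNRPN, so peaks over SNURF also count for SNRPN. Its span is 23.7 kb, and its lengths include 2 kb on each side. For SNURF, A-196 replicates 1 and 2 had 0 kb and replicate 3 had 16.7 kb, against 0 kb in all DMSO libraries. The siSUV420H1 libraries had 25.7 to 27.7 kb, against 17.7 to 25.7 kb in siNC libraries. The SNURF groups overlapped in both arms, in the siRNA arm by a tie at 25.7 kb.

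**Figure D2:**
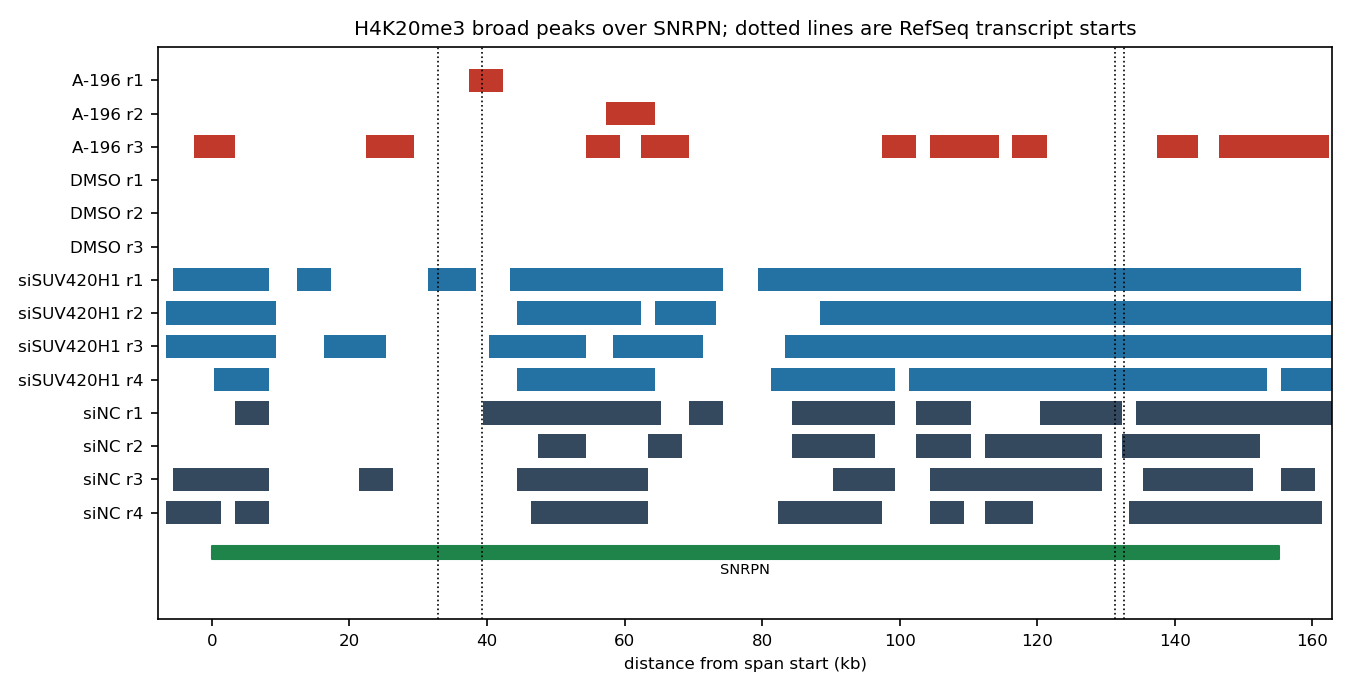
Broad peaks over SNRPN in the 14 libraries (rows; A-196 at the top, then DMSO, siSUV420H1 and siNC), by distance from the start of the span in kb; the green bar is the span and dotted lines are the 4 RefSeq transcript starts. At the right-hand pair of starts a peak was present in all 4 siSUV420H1 libraries and, for each start, in 1 of the 4 siNC libraries.

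RefSeq gives SNRPN 4 transcript starts with a promoter window of 250 bases before and 50 after the start. The inner pair lies in the part of the gene known for the imprinting centre, and its windows are shown since the siRNA groups differ most there. Capitals mark CG, the dinucleotide that carries DNA methylation; both windows are on the plus strand of GRCh38.p14, chr15:24954737-24955036 first and chr15:24956050-24956349 second.
SNRPN first inner start: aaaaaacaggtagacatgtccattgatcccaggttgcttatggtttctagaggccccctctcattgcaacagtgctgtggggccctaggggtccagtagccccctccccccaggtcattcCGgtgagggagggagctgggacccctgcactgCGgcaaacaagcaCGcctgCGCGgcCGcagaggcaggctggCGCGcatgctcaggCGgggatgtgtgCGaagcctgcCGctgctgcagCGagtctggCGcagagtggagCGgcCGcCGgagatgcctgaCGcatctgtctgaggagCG
SNRPN second inner start: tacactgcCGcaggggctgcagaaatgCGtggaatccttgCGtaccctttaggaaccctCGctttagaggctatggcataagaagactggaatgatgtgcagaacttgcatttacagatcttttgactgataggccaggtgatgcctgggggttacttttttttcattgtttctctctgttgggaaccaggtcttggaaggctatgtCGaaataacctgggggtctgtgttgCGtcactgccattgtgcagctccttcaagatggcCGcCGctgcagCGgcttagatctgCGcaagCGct
The first window holds 18 CG and is 64.3% G and C, and the second holds 11 and is 51% G and C. Peaks covered each window fully in 4 of 4 siSUV420H1 libraries and in 1 of 4 siNC libraries, replicate 1 for the first window and replicate 2 for the second (exact two-sided permutation test of covered bases, p = 0.143 for each, unadjusted). The windows were chosen on these same values, and in each siSUV420H1 library the same peak covered both. Both p-values are therefore descriptive and not independent of each other. No A-196 or DMSO library had a peak at either window. The motif TGCCGC, the core bound by ZFP57, was searched on both strands and occurs 2 times in the first window and 1 time in the second. It occurs in 16.7% of all 35116 promoter windows of this length in the table, and in 35% of the 60 windows of 29 listed genes, whose median CG count of 19.5 compares with 14 for all windows. The other two SNRPN starts were covered in siSUV420H1 replicate 1 for the one and in A-196 replicate 1, with 21 bases in siNC replicate 1, for the other.

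UBE3A, the ubiquitin ligase whose maternal copy is lost in Angelman syndrome, spans chr15:25333728-25439056. Its covered length was 5.06 kb in siSUV420H1 replicates 3 and 4 and 0 kb in the other two, against 0 kb in all 4 siNC libraries. It was 1.06 kb in A-196 replicate 2 and 0 kb in the other A-196 libraries, against 0 kb in all DMSO libraries. The groups overlapped in both arms (exact p = 0.429 with siSUV420H1, adjusted 0.569). The peak in siSUV420H1 replicates 3 and 4 covered the 3 UBE3A start windows fully, of which the densest in CG, with 44 CG, is shown in the sense of the gene (minus strand, chr15:25438975-25439274, capitals mark CG).
UBE3A start: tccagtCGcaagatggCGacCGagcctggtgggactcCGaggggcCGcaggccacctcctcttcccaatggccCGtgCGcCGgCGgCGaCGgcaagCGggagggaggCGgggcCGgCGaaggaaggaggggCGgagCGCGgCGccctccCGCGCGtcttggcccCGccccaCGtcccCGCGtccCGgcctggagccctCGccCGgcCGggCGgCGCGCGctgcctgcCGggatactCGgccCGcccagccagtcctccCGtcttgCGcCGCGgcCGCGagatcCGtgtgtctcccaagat
This window is 77% G and C and holds no TGCCGC. It was covered in 0 of 4 siNC libraries, and in 0 of 3 A-196 and 0 of 3 DMSO libraries.

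ATP10A codes for a phospholipid flippase and spans chr15:25672237-25865088. It had 10, 14 and 24 kb under peaks in A-196 libraries (16 ± 7.21 kb, SD, n = 3), against 0 kb in all 3 DMSO libraries. All of the A-196 values were higher. In the siRNA arm it had 18, 18, 3.09 and 16 kb with siSUV420H1 (13.8 ± 7.18 kb, SD, n = 4), against 13, 8, 18 and 7 kb with siNC (11.5 ± 5.07 kb, SD, n = 4). Those groups overlapped (exact p = 0.657, adjusted 0.837).

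GABRG3 and GABRA5 code for subunits of the GABA-A receptor. GABRG3, at chr15:26971181-27541984, had 36, 31 and 86 kb under peaks in A-196 libraries (51 ± 30.4 kb, SD, n = 3), against 0 kb in all DMSO libraries. The groups did not overlap, and 10 kb were common to all 3; without replicate 3 the difference was 33.5 kb. With siSUV420H1 it had 69, 87, 78 and 149 kb (95.75 ± 36.3 kb, SD, n = 4), against 64, 92, 100 and 81 kb with siNC (84.25 ± 15.6 kb, SD, n = 4), and the groups overlapped. GABRA5, at chr15:26866719-26949208, had 0, 5 and 0 kb in A-196 libraries, against 0 kb in each DMSO library. It had 5, 7, 5 and 7 kb with siSUV420H1, in every library, against 0, 5, 5 and 0 kb with siNC (exact p = 0.171, adjusted 0.279).

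The intronless or short genes at the start of the region carried almost no peak. NDN, which codes for the growth suppressor necdin, had 0.601 kb in siSUV420H1 replicate 1 and 0 kb elsewhere. MKRN3 and MAGEL2, which code for proteins of ubiquitin ligases, had none.

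The peaks were not limited to these genes. Over the 3976 kb from MKRN3 to GABRG3 (chr15:23565674-27541984), peaks covered 220, 270 and 691 kb in A-196 libraries (394 ± 259 kb, SD, n = 3), against 0, 19 and 14 kb in DMSO libraries (11 ± 9.85 kb, SD, n = 3). With siSUV420H1 they covered 1129, 1122, 1033 and 1159 kb (1111 ± 54.3 kb, SD, n = 4), against 728, 842, 888 and 598 kb with siNC (764 ± 130 kb, SD, n = 4). Neither pair of groups overlapped. Over all of chromosome 15 the order was the other way round, with 1.37 to 2.56 Mb in A-196 libraries and 2.91 to 3.14 Mb in DMSO libraries, and with 3.39 to 3.54 Mb in siSUV420H1 libraries and 4.53 to 4.96 Mb in siNC libraries.

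In 500 kb bins, all 8 bins of the region were higher in every A-196 library, beside 9.09% of the bins of the genome, and 0 were lower, beside 24.2%. With siSUV420H1, 4 of 8 bins were higher, beside 6.34% of the bins of the genome, and 0 were lower, beside 42%. The bin with the longest cover in siSUV420H1 libraries began 934 kb into the region and holds SNRPN, with 268, 286, 296 and 277 kb, against 202, 207, 223 and 156 kb in siNC libraries. The same bin held 28, 70 and 165 kb in A-196 libraries, against 0, 9 and 8 kb in DMSO libraries. Neighbouring bins share wide peaks, so the 8 bins are not independent of each other.

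The peaks differed in form between the arms. The region held 34, 43 and 94 peaks in A-196 libraries, against 0, 3 and 2 in DMSO libraries. It held 102, 104, 94 and 107 in siSUV420H1 libraries, against 77, 91, 89 and 72 in siNC libraries. The median width there was 5.5, 5 and 6 kb in A-196 libraries, close to the 5 kb of the narrowest peak in any list. It was 5 and 7 kb in DMSO replicates 2 and 3, 8 kb in each siSUV420H1 library and 7 to 8 kb in siNC libraries. The widest peak was 13 to 20 kb in an A-196 library, against 8 to 9 kb in DMSO replicates 2 and 3. It was 76 to 115 kb in a siSUV420H1 library, against 28 to 77 kb in a siNC library. Of the bases under peaks in A-196 libraries 1, 2 and 3, 40%, 41.5% and 53.4% also lay under a peak of at least 1 siNC library, where the siNC peaks together take up 37.5% of the region.

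**Figure D3:**
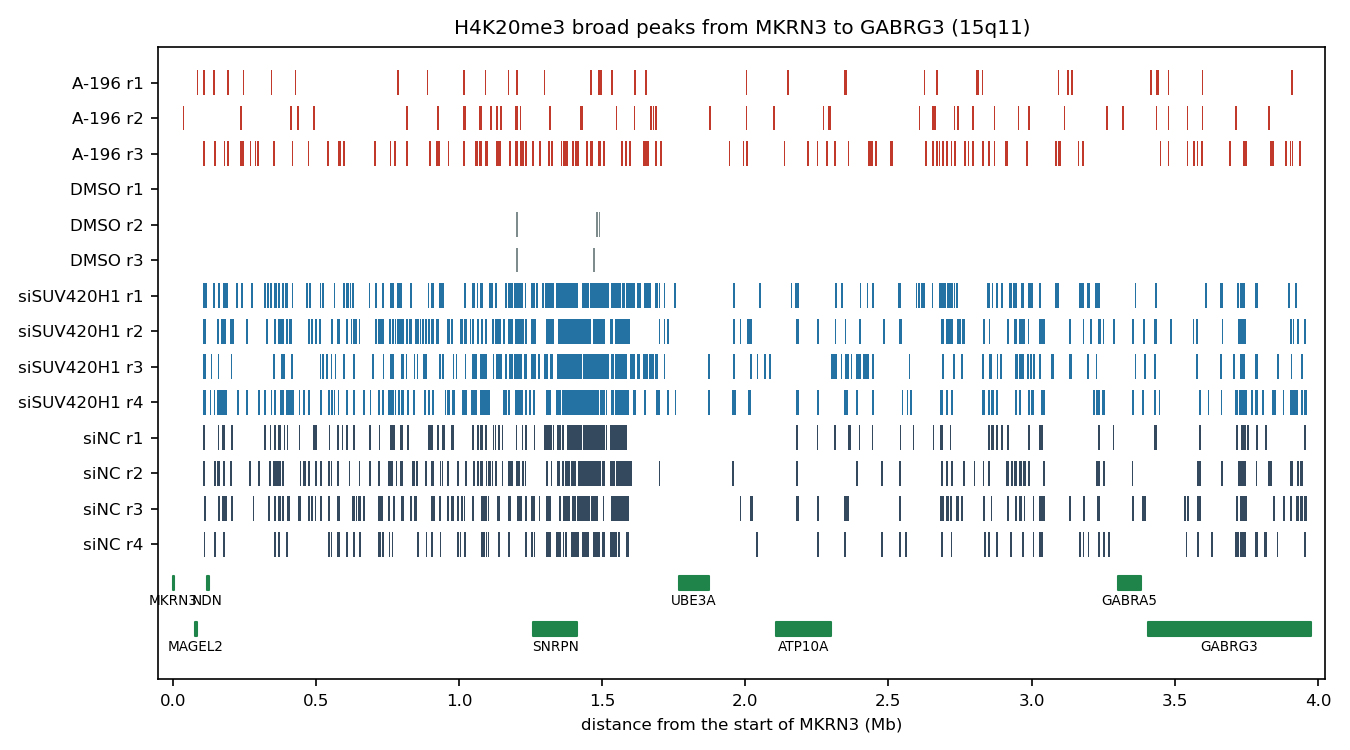
Broad peaks from MKRN3 to GABRG3 in the 14 libraries (rows; A-196 at the top, then DMSO, siSUV420H1 and siNC), by distance in Mb from the start of MKRN3; green bars are the 8 listed genes. Covered length was 220 to 691 kb in A-196 libraries and 0 to 19 kb in DMSO libraries, and 1033 to 1159 kb in siSUV420H1 libraries and 598 to 888 kb in siNC libraries.

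SNHG14, the long non-coding RNA that starts at SNRPN and runs antisense to UBE3A, was covered over 45, 42 and 155 kb in A-196 libraries, against 0, 10 and 6 kb in DMSO libraries. It was covered over 374, 275, 358 and 300 kb in siSUV420H1 libraries, against 251, 230, 217 and 182 kb in siNC libraries. The groups did not overlap in either arm.

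At 11p15 the only listed gene with peaks was KCNQ1, a potassium channel gene whose introns hold the control region of the locus, at chr11:2445008-2849105. It had 50, 49.0 and 45 kb under peaks in A-196 libraries (48.0 ± 2.64 kb, SD, n = 3), against 41, 38 and 39 kb in DMSO libraries (39.3 ± 1.53 kb, SD, n = 3), and every A-196 library was higher. With siSUV420H1 it had 35, 38, 37 and 38 kb (37 ± 1.41 kb, SD, n = 4), against 50, 51, 52 and 45 kb with siNC (49.5 ± 3.11 kb, SD, n = 4). Every siSUV420H1 library was lower, by 12.5 kb on average (exact p = 0.0286, adjusted 0.0650), and scaling to the covered length of the library turned this difference to 5.26 kb higher.

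The positions of the KCNQ1 peaks show where these lengths lie. All 14 libraries had a domain around 181 to 219 kb from the span start, within the span of KCNQ1OT1, the non-coding antisense RNA that silences the locus on the paternal copy. The same ends were shared by siSUV420H1 replicates 2 and 4 and DMSO replicate 2, chr11:2626001-2664000, and all 4 siNC libraries shared chr11:2625001-2665000. Over KCNQ1OT1 itself, peaks covered 36, 24.7 and 45 kb in A-196 libraries, against 41, 38 and 39 kb in DMSO libraries, and the groups overlapped. They covered 35, 38, 37 and 38 kb in siSUV420H1 libraries, against 40 kb in each siNC library, every siSUV420H1 library being lower by 2 to 5 kb. The siSUV420H1 libraries had no other peak in KCNQ1, while siNC libraries had a further peak of 5 or 6 kb near 375 kb in all 4 and near 151 kb in 3. In A-196 replicates 1 and 2 the domain was 36 and 22 kb wide and the rest of the length lay in peaks of 5 to 9 kb outside it, 2 in replicate 1 and 4 in replicate 2, while replicate 3 had the domain alone, 45 kb wide.

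**Figure D4:**
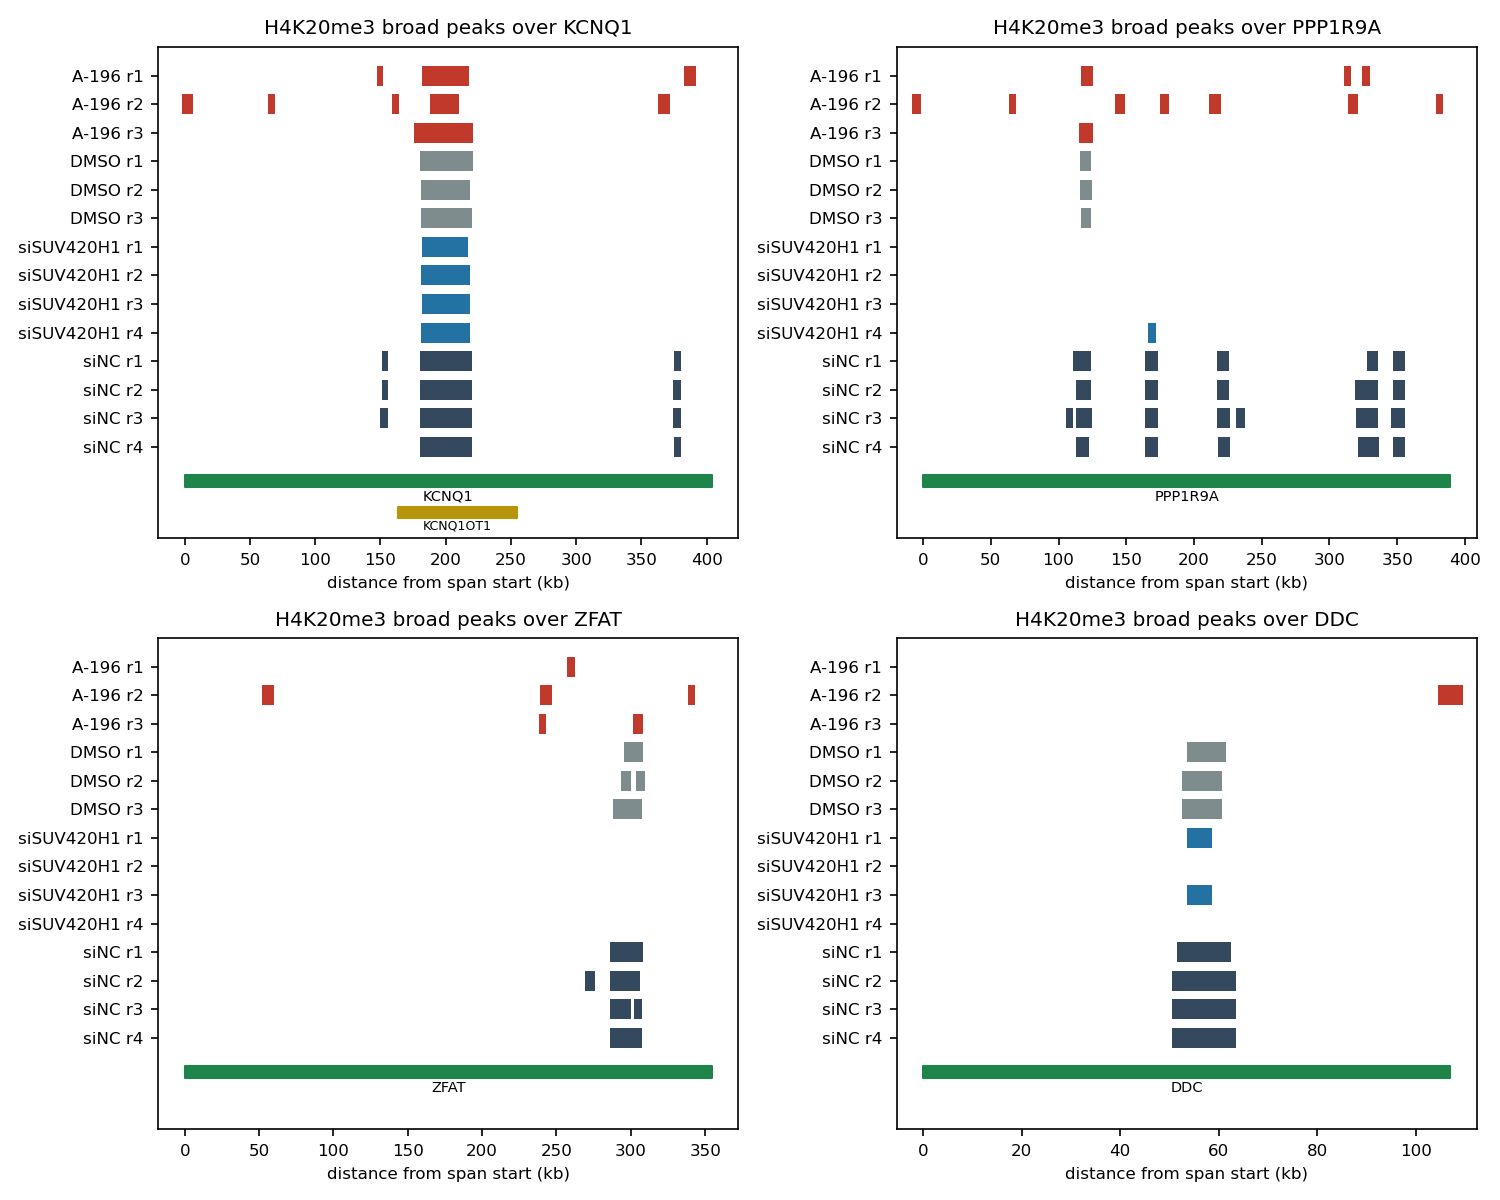
Broad peaks over KCNQ1, PPP1R9A, ZFAT and DDC in the 14 libraries (rows; A-196 at the top, then DMSO, siSUV420H1 and siNC), by distance from the start of each span in kb; green bars are spans and the yellow bar is KCNQ1OT1. The KCNQ1 domain was present in all 14 libraries, whereas siSUV420H1 libraries held 1 peak in PPP1R9A, of 6 kb in replicate 4, and none in ZFAT, where every siNC library held peaks.

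At 14q32 the listed genes carried peaks in A-196 libraries only, and the groups overlapped at each of them. RTL1, a retrotransposon-derived gene needed by the placenta in mice, had 5, 7 and 0 kb in A-196 libraries, and DIO3, which codes for a deiodinase that inactivates thyroid hormone, had 4.45 kb in A-196 replicate 2. Both were at 0 kb in all DMSO, siSUV420H1 and siNC libraries. MEG8, a non-coding RNA gene of the same locus, had 5, 7 and 5 kb with A-196, against 0 kb with DMSO, and 10 kb in each siSUV420H1 library, against 8, 7, 9 and 9 kb with siNC.

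At 7q21, peaks covered 55, 43, 41 and 58 kb of the 711 kb from SGCE to PPP1R9A in siSUV420H1 libraries (49.25 ± 8.50 kb, SD, n = 4), against 125, 135, 153 and 141 kb in siNC libraries (138.5 ± 11.7 kb, SD, n = 4). Part of that length lay in PPP1R9A, which codes for the actin-binding protein neurabin, at chr7:94907236-95296415, and part outside the listed genes. PPP1R9A had 20, 40.8 and 11 kb under peaks in A-196 libraries (23.9 ± 15.3 kb, SD, n = 3), against 8, 9 and 7 kb in DMSO libraries (8 ± 1 kb, SD, n = 3). The A-196 values were all higher, and without replicate 2 the difference of 15.9 kb was 7.5 kb. With siSUV420H1 it had 0, 0, 0 and 6 kb (1.5 ± 3 kb, SD, n = 4), against 49, 56, 70 and 54 kb with siNC (57.25 ± 9 kb, SD, n = 4), every siSUV420H1 library being lower (exact p = 0.0286, adjusted 0.0650).

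The siSUV420H1 libraries had 0 kb of PPP1R9A in common, against 45 kb in the siNC libraries, in separate peaks of 5 to 17 kb. A-196 replicates 1 and 3 had a peak of 9 and 11 kb at the place of the DMSO peak, 116 to 124 kb from the span start in DMSO replicate 1, and every siNC library had one there too. A-196 replicate 2 had none there but 7 peaks elsewhere in or beside the gene. Its neighbours SGCE, a sarcoglycan gene, and PEG10, a retrotransposon-derived gene, share their start region. SGCE had 0, 3.02 and 0 kb with A-196, against 0 kb in all DMSO libraries, and 5, 0, 0 and 0 kb with siSUV420H1, against 0, 6, 5.13 and 7 kb with siNC. PEG10 had 0 kb in all siSUV420H1 libraries, against 0, 3.68, 4.68 and 0 kb with siNC, and 0 kb in all A-196 and DMSO libraries. The groups of both genes overlapped in both arms.

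At 7q32, CPA4, a carboxypeptidase gene at chr7:130293161-130324180, was marked in all 14 libraries, as was KCNQ1; 3.87% of all coding genes were. It had 8.84, 10.8 and 7.84 kb under peaks in A-196 libraries (9.17 ± 1.53 kb, SD, n = 3), against 9.84, 9.84 and 10.8 kb in DMSO libraries (10.2 ± 0.577 kb, SD, n = 3). It had 8.84, 7.84, 8.84 and 7.84 kb with siSUV420H1 (8.34 ± 0.577 kb, SD, n = 4), against 8.84 kb in each siNC library. The groups overlapped in both arms (exact p = 0.5, adjusted 1, with A-196 and exact p = 0.429, adjusted 0.569, with siSUV420H1). Of the 29 listed genes with a start window, only CPA4 had it under a peak in every library, and its window on the plus strand (chr7:130292911-130293210) is shown for contrast with those of SNRPN and UBE3A, capitals again marking CG.
CPA4 start: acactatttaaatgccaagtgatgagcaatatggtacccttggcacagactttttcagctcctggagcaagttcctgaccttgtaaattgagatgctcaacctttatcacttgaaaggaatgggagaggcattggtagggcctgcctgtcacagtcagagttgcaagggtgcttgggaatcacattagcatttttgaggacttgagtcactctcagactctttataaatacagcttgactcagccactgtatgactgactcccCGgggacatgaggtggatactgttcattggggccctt
The window holds 1 CG, is 46.3% G and C and holds no TGCCGC, and all 300 bases lay under a peak in each of the 14 libraries. The peak was 13 and 14 kb wide in A-196 replicates 1 and 3 and split into peaks of 6 and 8 kb in replicate 2, against 50, 59 and 16 kb in DMSO libraries. It was 13 to 14 kb wide in siSUV420H1 libraries, against 14 to 15 kb in siNC libraries.

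COPG2, a coatomer subunit gene at chr7:130506238-130668748, had 0, 6 and 0 kb in A-196 libraries, against 0 kb in all DMSO libraries. It had 13, 9, 15 and 13 kb with siSUV420H1 (12.5 ± 2.52 kb, SD, n = 4), against 7, 9, 6 and 0 kb with siNC (5.5 ± 3.87 kb, SD, n = 4). The siRNA groups overlapped by a tie at 9 kb (exact p = 0.0571, adjusted 0.122), and 8 kb were common to all siSUV420H1 libraries. MEST, the imprinted gene that overlaps the end of COPG2, had 2.83 kb in A-196 replicate 3 and 3.83 kb in DMSO replicate 3 and 0 kb elsewhere.

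DDC, at 7p12 (chr7:50458442-50565405), codes for the decarboxylase that makes dopamine and serotonin. It had 0, 4.41 and 0 kb under peaks in A-196 libraries (1.47 ± 2.54 kb, SD, n = 3), against 8 kb in each DMSO library. With siSUV420H1 it had 5, 0, 5 and 0 kb (2.5 ± 2.89 kb, SD, n = 4), against 11, 13, 13 and 13 kb with siNC (12.5 ± 1 kb, SD, n = 4). It was lower in every treated library of both arms, the only listed gene of which that held. The DMSO and siNC peaks lay at the same place, around 54 to 59 kb from the span start, where siSUV420H1 replicates 1 and 3 had a 5 kb peak. The A-196 replicate 2 peak lay elsewhere, at the end of the span. GRB10, the neighbouring adaptor gene of insulin signalling, had no peak in any library.

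FAM50B, a retrotransposed gene at 6p25 (chr6:3831894-3851317), had 0 kb in all A-196 libraries, against 0, 2.11 and 0 kb in DMSO libraries. It had 0 kb in all siSUV420H1 libraries, against 7.11, 6.11, 6.11 and 6.11 kb in siNC libraries (6.36 ± 0.5 kb, SD, n = 4). The siNC peaks ran from -4.89 kb to 5.11 kb from the span start in replicate 1, and to 4.11 kb in the others. The FAM50B start window lies 17.2 kb into the span and was covered in 0 libraries. The siRNA groups did not overlap (exact p = 0.0286, adjusted 0.0650). At 6q25 lie the cation transporter genes SLC22A2 and SLC22A3. SLC22A2 had 0 kb in all siSUV420H1 libraries, against 6, 6, 0 and 0 kb with siNC, and 0 kb in all A-196 and DMSO libraries. SLC22A3 had 0 kb in all siSUV420H1 libraries, against 0, 5, 15 and 6 kb with siNC, and 0, 7 and 0 kb with A-196, against 0 kb in all DMSO libraries. The groups of both genes overlapped in both arms. IGF2R, the gene of the receptor that clears IGF2, had no peak.

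At 8q24, ZFAT, which codes for a zinc finger protein with an AT-hook (chr8:134477788-134832339), had 5, 21 and 12 kb in A-196 libraries (12.7 ± 8.02 kb, SD, n = 3), against 13, 13 and 19 kb in DMSO libraries (15 ± 3.46 kb, SD, n = 3). These groups overlapped (exact p = 0.8, adjusted 1). It had 0 kb in all 4 siSUV420H1 libraries, against 22, 27, 19 and 21 kb in siNC libraries (22.25 ± 3.40 kb, SD, n = 4), every siSUV420H1 library being lower (exact p = 0.0286, adjusted 0.0650). Of the A-196 libraries, only replicate 3 had a peak, 7 kb wide, in the domain about 295 to 307 kb from the span start where all DMSO and siNC libraries had peaks, and the remaining A-196 peaks lay at other places in the gene.

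TRAPPC9, a gene for a vesicle tethering factor (chr8:139727725-140458579), had 15, 54 and 10 kb in A-196 libraries (26.3 ± 24.1 kb, SD, n = 3), against 0 kb in all DMSO libraries. The 2 groups did not overlap, but 0 kb were common to the 3, and without replicate 2 the difference of 26.3 kb was 12.5 kb. No siSUV420H1 or siNC library had a peak in it. KCNK9, its imprinted potassium channel neighbour, had 17 kb in A-196 replicate 2 and 0 kb in all other libraries.

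At 19q13, ZIM2 and PEG3 code for zinc finger proteins, share their first exons and overlap, so their peaks are in part the same. ZIM2 (chr19:56774547-56840726) had 17.5, 15 and 20 kb in A-196 libraries (17.5 ± 2.50 kb, SD, n = 3), against 0 kb in all DMSO libraries. Every A-196 library was higher. With siSUV420H1 it had 39.2, 6, 28.7 and 19.2 kb (23.3 ± 14.1 kb, SD, n = 4), against 5, 19, 7 and 11 kb with siNC (10.5 ± 6.19 kb, SD, n = 4), and the groups overlapped (exact p = 0.171, adjusted 0.279).

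PEG3 (chr19:56810082-56840726) had 6, 3.92 and 6.92 kb in A-196 libraries (5.61 ± 1.54 kb, SD, n = 3), against 0 kb in all DMSO libraries. Every A-196 library was higher. It had 13.6, 0, 8.73 and 8.73 kb with siSUV420H1 (7.77 ± 5.68 kb, SD, n = 4), against 0, 1.92, 0 and 0 kb with siNC (0.480 ± 0.960 kb, SD, n = 4), and the groups overlapped through siSUV420H1 replicate 2 at 0 kb (exact p = 0.143, adjusted 0.237). USP29, a deubiquitinase gene of the domain, had 0, 11.8 and 8.91 kb in A-196 libraries, against 1.91, 0.914 and 0 kb in DMSO libraries. It had 1.91, 0, 0 and 0 kb with siSUV420H1, against 0 kb in all siNC libraries, and the groups overlapped in both arms.

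Across the 357 kb from ZIM2 to USP29, peaks covered 62.5, 89.9 and 125 kb in A-196 libraries (92.5 ± 31.3 kb, SD, n = 3), against 15, 13 and 13 kb in DMSO libraries (13.7 ± 1.15 kb, SD, n = 3), without overlap. They covered 88, 38, 67 and 47 kb in siSUV420H1 libraries (60 ± 22.3 kb, SD, n = 4), against 27, 47, 28 and 32 kb in siNC libraries (33.5 ± 9.26 kb, SD, n = 4), with overlap. On chromosome 20 the only listed gene with peaks was GNAS, which codes for the stimulatory G protein alpha subunit, with 7 kb in A-196 replicate 1 and 0.253 kb in replicate 2. GNAS-AS1, its antisense RNA gene, had 7 and 5 kb in the same libraries and 0 kb elsewhere.

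The stretch from the first to the last listed gene was measured at 8 loci, and the direction differed between them. With A-196, 5 stretches were higher (15q11, 11p15, 14q32, 7q21 and 19q13), 2 were lower (7q32 and 7p12) and 1 overlapped (6q25). Over the 441 kb at 7q32, from CPA4 to KLF14, peaks covered 21.8, 36.8 and 44.8 kb in A-196 libraries (34.5 ± 11.7 kb, SD, n = 3), against 78.8, 59.8 and 63.8 kb in DMSO libraries (67.5 ± 10 kb, SD, n = 3). All A-196 libraries were lower there, and after scaling to the covered length of the library these groups overlapped.

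With siSUV420H1, 1 stretch was higher (15q11), 6 were lower (11p15, 14q32, 7q21, 7q32, 6q25 and 7p12) and 1 overlapped (19q13). Peaks covered 10 kb of the 14q32 stretch, from DLK1 to DIO3, in each siSUV420H1 library, against 17, 22, 25 and 18 kb in siNC libraries. At 6q25, from IGF2R to SLC22A3, they covered 9, 8, 8 and 9 kb in siSUV420H1 libraries, against 28, 33, 36 and 19 kb in siNC libraries. After scaling, 3 stretches were higher with siSUV420H1 (15q11, 11p15 and 19q13) and 4 lower (14q32, 7q21, 6q25 and 7p12). Over the 500 kb bins of the genome, without scaling, 9.09% were higher and 24.2% lower with A-196, and 6.34% higher and 42% lower with siSUV420H1. The stretches run from 335 kb (7p12) to 3976 kb (15q11), so these bins are not a reference of like length.

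**Figure D5:**
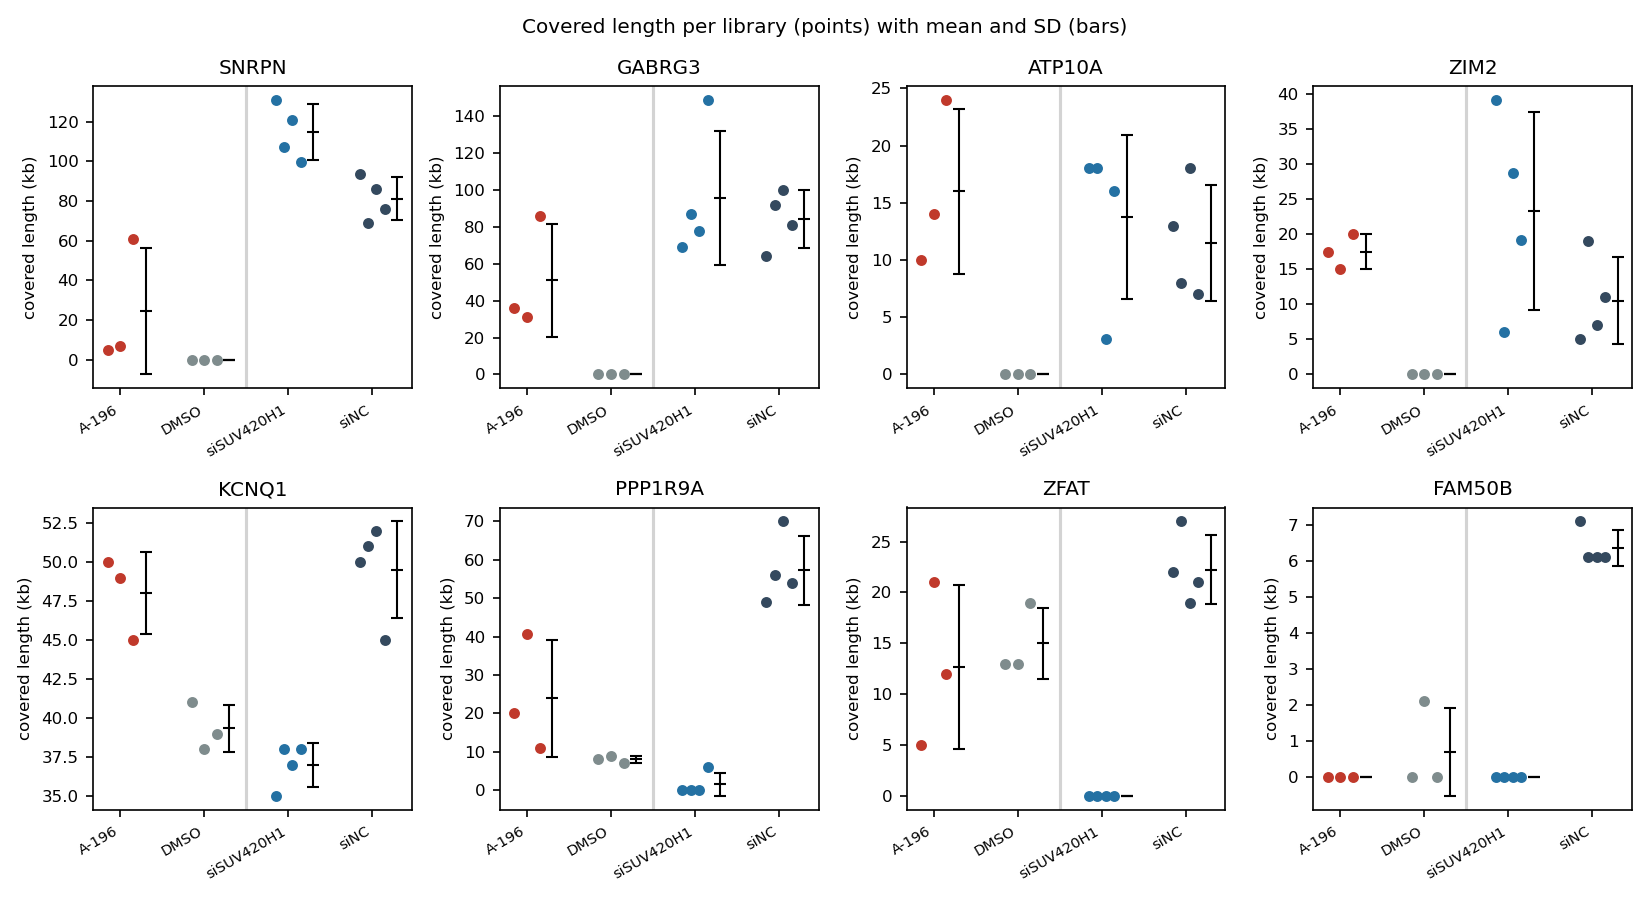
Covered length in kb per library (points) with the group mean and SD (bars) for 8 genes; in each panel A-196 stands left of DMSO and siSUV420H1 left of siNC, and the vertical axes differ. SNRPN, GABRG3, ATP10A and ZIM2 were at 0 kb in all DMSO libraries, and ZFAT and FAM50B at 0 kb in all siSUV420H1 libraries; the lower KCNQ1 length with siSUV420H1 turns higher when scaled to the covered length of the library.

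The replicates were least alike in the A-196 group. Over the listed genes, the mean Jaccard index between libraries, the share of bases under peaks of either that lie under peaks of both, was 0.149 among A-196 libraries, against 0.8 among DMSO libraries. It was 0.525 among siSUV420H1 libraries, against 0.548 among siNC libraries. Over the whole genome it was 0.315 among A-196 libraries, against 0.750 among DMSO libraries. There it was 0.689 among siSUV420H1 libraries, against 0.772 among siNC libraries. The index over the listed genes was thus below that of the genome in every group but DMSO. The peaks over listed genes had a median width of 6 kb in A-196 libraries, against 11 kb in DMSO libraries, and of 9 kb in siSUV420H1 libraries, against 8 kb in siNC libraries. When only peaks of at least 8 kb, the median width in that arm, were used, 1 of the 8 genes higher with A-196 was still so, which was ZIM2.

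The change on the log2(kb + 1) scale was compared between arms by permuting labels within each arm. The null of this permutation is no change in either arm, so a change in a single arm can give a small p. Its p-values therefore do not test whether the arms changed equally. Of 26 listed genes tested, 0 passed after Benjamini-Hochberg adjustment over 6622 genes, and 4 had an unadjusted exact p under 0.05 (PPP1R9A, KCNQ1, ZFAT and FAM50B), beside 12.2% of all genes tested. For PPP1R9A the change with A-196 minus that with siSUV420H1 was 6.44 (exact p = 0.00143, adjusted 0.123). For KCNQ1 it was 0.69 with the same p-values, and for ZFAT 4.13 (exact p = 0.02, adjusted 0.256). SNRPN, higher in both arms, had a difference of 3.35 (exact p = 0.1, adjusted 0.476), and DDC, lower in both, one of 0.10 (exact p = 0.966, adjusted 1).

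Of 33 genes that place or keep imprints, 9 were marked in at least 1 library, beside 33.1% of all coding genes, so their count was near that share. With A-196 0 were higher and 1 was lower, beside 1.09% and 5.51% of all coding genes, and with siSUV420H1 2 were higher and 0 lower, beside 2.08% and 6.74%. EHMT1, a histone H3 lysine 9 methyltransferase gene, had 0, 6 and 5 kb with A-196, against 13, 7 and 12 kb with DMSO, and 20, 20, 25 and 19 kb with siSUV420H1, against 18 kb in each siNC library. SETDB1, the methyltransferase gene of the TRIM28 complex, had 9 kb in each siSUV420H1 library, against 8, 6, 6 and 5 kb with siNC, and 0 kb in all A-196 and DMSO libraries. Of 76 other imprinted genes and neighbours matched of 80 listed, 45 were marked in at least 1 library, beside 33.1% of all coding genes. With A-196 4 were higher and 6 lower, beside 1.09% and 5.51% of all coding genes. With siSUV420H1 5 were higher and 6 lower, beside 2.08% and 6.74%. ZNF331, an imprinted zinc finger gene of chromosome 19, had 25, 23 and 44.3 kb with A-196, against 8, 0 and 7 kb with DMSO, and 47.3, 46.3, 44.3 and 33 kb with siSUV420H1, against 34, 30, 26 and 28 kb with siNC. RB1, whose body holds an imprinted region, had 50, 54, 52 and 41 kb with siSUV420H1, against 34, 39, 25 and 38 kb with siNC, without overlap.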

How the data were processed

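H4K20me3 CUT&RUN libraries were used (3 A-196, 3 DMSO, 4 siSUV420H1, 4 siNC), grouped by title; of the 24 samples in the labels, those of IgG (2), H3K4me3 (4) and H3K27me3 (4) were not used here. The deposited lists give the start and end of broad peaks, called by the authors for each library, and no score or read count. The build was hg38 and the tools named were, per the submitters' processing notes, cutadapt 4.4, Bowtie, Picard 2.27.3 and bedtools 2.30.0; the peak caller is not given in the sources used here. Peak ends lay on a 1000 bp grid with gaps of at least 2 kb, so smaller changes are not visible. Interval arithmetic and permutation tests were written in Python 3.11.15 (numpy 2.4.6, pandas 2.3.3) and tested on simulated data, with limma 3.58.1 in R 4.3.3 as an alternative. Gene spans, without strand or exons, and promoter windows came from RefSeq tables of GRCh38.p14; 190 coding symbols on scaffolds were left out. Group means of covered kb were compared by exact two-sided permutation, with Benjamini-Hochberg adjustment over all coding genes with a peak in the arm (5659 and 3985) and a threshold of 0.05. Values were given for each gene marked in every library of a group or with groups apart in an arm, and the rest by range and count. Of other genes, up to 4 per list with the largest difference were eligible. The listed genes, the gene lists (imprint maintenance factors, other imprinted genes and neighbours, cell type markers) and the tests were chosen with earlier results of these data known. SNHG14 and the other non-coding genes, SNURF and the printed windows were chosen after their values were seen. Alternatives covered flanks, overlap, peak width, merging, scaling, summary, pairing, test and single libraries.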

Additional observations from a re-analysis of the deposited data

Results flagged for a closer look

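By Dixon's criterion, 8 of 31 groups of 4 libraries held a library far from the others. In 7 of these 8 the other 3 libraries had equal lengths, where the criterion is met by a difference of any size, so its usual rate of about 1 chance call in 20 groups does not apply to these lengths. In the siSUV420H1 group these were the highest values of NDN (0.601 kb), SGCE (5 kb), USP29 (1.91 kb) and PPP1R9A (6 kb), where the other 3 libraries were at 0 kb. The lowest value of ATP10A in that group, 3.09 kb in replicate 3, lay under the others at 16 to 18 kb. In the siNC group they were the lowest value of DDC (11 kb, with the others at 13 kb), the highest of FAM50B (7.11 kb, with the others at 6.11 kb) and the highest of PEG3 (1.92 kb, with the others at 0 kb).

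The change of 2 genes differed in sign between the arms without overlap in either. For PPP1R9A, higher with A-196 and lower with siSUV420H1, the changes differed by 6.44 on the log2(kb + 1) scale (exact permutation p = 0.00143, adjusted 0.123). For KCNQ1 they differed by 0.69 with the same p-values, and the change with siSUV420H1 reversed on scaling to the covered length of the library. The null of these p-values is no change in either arm, so they do not test whether the changes were equal.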

How the results depend on the processing

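Of 15 calls of a gene in an arm, 7 held under every setting recomputed per gene (11 with A-196, 13 with siSUV420H1) and 8 were lost under 1 setting each. With only peaks at or above the median width, the A-196 minus DMSO difference in covered length over the listed genes was 48.3 kb instead of 176 kb, that in genes marked 3.33 instead of 8.67, the siSUV420H1 minus siNC difference in covered length -6.12 kb instead of -46.6 kb, and with A-196 1 gene was higher (8 in the reported result) and 2 lower (1 in the reported result). Scaling to the covered length of the library gave 255 kb with A-196 and reversed the siSUV420H1 difference to 97.2 kb, with 6 genes higher instead of 1, and the KCNQ1 difference of -12.5 kb reversed to 5.26 kb. With 10 kb flanks, 2 genes were lower with A-196. Under limma, 5 and 6 genes passed in the A-196 and siRNA arms instead of 0. With single libraries left out, the A-196 difference was 151 to 216 kb and 5.67 to 10.2 genes marked, with 8 to 10 genes higher and 1 to 3 lower; 3 were lower without A-196 replicate 2. The siSUV420H1 difference was -60.3 to -31.4 kb and -4 to -2.25 genes, with 1 to 4 higher and 5 to 7 lower; 4 were higher without siSUV420H1 replicate 2 and 2 without siNC replicate 2. The permutation test on the difference between arms, whose null is no change in either arm, passed 0 genes in every setting tried. Replicate numbers are shared between groups, but same-numbered libraries did not deviate together (correlations from -0.029 to 0.043 across genes). That cannot show whether the libraries were paired in the experiment, which is not stated. They were therefore compared unpaired, with the replicate number as a block in an alternative. With the replicate block the differences stayed 176 and -46.6 kb and 8.67 and -3.25 genes, with 8 higher and 1 lower with A-196, 1 higher and 5 lower with siSUV420H1, and 0 past the adjusted exact test. The cause of these changes was not tested. Depth is unknown and limits all of these lists.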
